A study of Mus musculus with 6 samples.

Results

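The genes described here are 10 markers of epithelial and mesenchymal identity, namely Vim, Krt8, Krt18, S100a4, Cdh1, Cdh2, Zeb1, Zeb2, Snai2 and Twist1. They were chosen by symbol, with earlier results of these data known. All 10 were found among the 55291 gene symbols of the deposited table. The cells were Lewis lung carcinoma (LLC), an established mouse lung cancer line, grown untreated. The Calr KO group (n = 3) had received plasmids for Cas9 and a guide RNA against Calr, and the control group (n = 3), labelled WT, a control guide. Both groups were kept for 10 days, seeded in triplicate wells and harvested 48 hours later. Each group is thus 1 treated population divided over wells, and p-values measure the spread between wells, not between independent knockouts.

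Epithelial cells adhere to one another through E-cadherin, the product of Cdh1, and are built on keratin filaments such as the pair of keratin 8 and keratin 18. Mesenchymal cells carry vimentin filaments, often switch to N-cadherin, the product of Cdh2, and migrate singly. In the epithelial-mesenchymal transition (EMT) the transcription factors of the ZEB, SNAI and TWIST families repress Cdh1 and other epithelial genes by binding short DNA elements known as E-boxes, and carcinoma cells can hold any mixture of both states.

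Expression was measured by RNA sequencing of total RNA. Values are the authors' DESeq2-normalised counts per gene, called normalised counts below, and the libraries summed to between 14040692 and 14099985. Calr itself, the target of the guide, had 4467, 4216 and 4453 normalised counts in the Calr KO libraries and 10711, 10202 and 11047 in the controls, so the labels and the target gene went together, with transcript remaining. Markers of blood and endothelial cells were low. The lymphocyte markers summed to between 0 and 9.74 normalised counts in a library and the macrophage markers to between 65.1 and 114, mostly Cd68, with Adgre1, C1qa and C1qb listed at 0. The endothelial markers summed to between 47.6 and 71.6. The fibroblast markers were not low, with sums of 22998 to 24617 in Calr KO and 22280 to 23189 in control libraries, most of it Col3a1. In bulk RNA, fewer cells with a transcript and less of it per cell cannot be told apart.

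The promoters of the keratin pair are shown because Krt8 and Krt18 remained expressed beside ZEB, SNAI and TWIST factors in these cells (values below). Both hold the letters CACCTG, a form of the E-box read by ZEB and SNAI proteins, set here in capitals within 300 bases that run from 250 before to 50 after the RefSeq start site on build GRCm38.p6, each on its gene's own strand. The Krt8 window is chr15:102004293-102004592 on the minus strand and the Krt18 window chr15:102027966-102028265 on the plus strand.
Krt8: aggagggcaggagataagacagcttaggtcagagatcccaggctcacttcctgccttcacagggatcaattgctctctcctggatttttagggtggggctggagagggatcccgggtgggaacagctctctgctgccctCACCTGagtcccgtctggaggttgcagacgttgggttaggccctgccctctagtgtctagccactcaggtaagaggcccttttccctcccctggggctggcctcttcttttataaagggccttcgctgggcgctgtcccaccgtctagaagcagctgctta
Krt18: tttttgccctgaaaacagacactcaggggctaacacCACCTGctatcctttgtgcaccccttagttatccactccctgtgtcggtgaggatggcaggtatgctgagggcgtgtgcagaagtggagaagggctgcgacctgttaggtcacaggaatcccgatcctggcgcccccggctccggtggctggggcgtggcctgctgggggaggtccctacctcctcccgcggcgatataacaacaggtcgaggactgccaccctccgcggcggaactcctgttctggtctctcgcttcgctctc
The match began at position -111 in Krt8 and at -214 in Krt18, counted from the RefSeq start site. The Krt8 gene model used for levels (GENCODE M21) starts further upstream, at 102004482. The Krt8 match therefore lies inside that gene model. CACCTG or its reverse complement CAGGTG was found in 20.2% of all 32851 promoter windows of this length. The RefSeq table held windows for 6 of the 10 genes, and those of Vim, S100a4, Twist1 and Zeb2 (4 windows) held neither form. The Vim window, which begins at 13574061, also lies inside its GENCODE gene model, which begins at 13573927. A match describes letters and does not show that a protein was bound.

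In control cells the intermediate filament genes were led by Vim, which encodes vimentin, the filament protein of mesenchymal cells (chr2:13573927-13582826, plus strand, GRCm38 with GENCODE M21, as for all genes here). Control libraries held 40870, 38527 and 38633 normalised counts of Vim. Per kilobase of the principal transcript this was 17940 ± 604 (SD, n = 3), at or above 99.8% of the genes detected in control cells, and the first of the 10 genes.

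Keratins were present as well. Krt8, the type II keratin of simple epithelia (chr15:101996698-102004482, minus strand), had 4637, 4404 and 4375 normalised counts in the controls, 2284 ± 73.3 per kilobase, which is at or above 98.2% of detected genes. Krt18, its type I filament partner (chr15:102028180-102032027, plus strand), had 290, 292 and 254 normalised counts, 194 ± 15.0 per kilobase. Keratin 8 and keratin 18 assemble as a heteropolymer, yet per kilobase the Krt8 transcript was 11.8-fold more abundant than that of Krt18 in control cells, and Vim was 7.85-fold above Krt8 (3.63-fold over the length of all annotated exons). The processed pseudogene Krt8-ps, with which reads can be shared, carried 2.41% as many normalised counts as Krt8 in the controls.

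S100a4, a small calcium-binding protein of motile and fibroblast-like cells (chr3:90603771-90606045, plus strand), was the second gene per kilobase at 9680 ± 305. Its control libraries held 4911, 4645 and 4905 normalised counts. This order rests on the transcript length: over the length of all annotated exons, Vim was 8295 and S100a4 8254 per kilobase. An overlapping gene model that shares 302 exonic bases with S100a4, Gm42674, was listed at 0 in all libraries.

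Both cadherins of the classical switch were near or at 0. Cdh1 (E-cadherin, chr8:106603351-106670246, plus strand) had 4.98, 1.03 and 2.89 normalised counts in the controls, which are 5, 1 and 3 reads. Cdh2 (N-cadherin, chr18:16588877-16809246, minus strand) had 0, 0 and 0.964, a single read over the control group. In each library 3 counts, the limit that a count of 0 allows, are at most 2.14e-05% of the total, for counting error only. Cdh1 exceeded that limit in 1 control library and Cdh2 in none.

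The transcription factors of EMT were all expressed, at or above 66.7% (Zeb2) to 89.5% (Twist1) of detected genes per kilobase. Twist1, a basic helix-loop-helix factor of mesoderm (chr12:33957671-33959829, plus strand), had 794, 796 and 755 normalised counts in the controls and 480 ± 14.2 per kilobase. Zeb1, a zinc finger E-box repressor (chr18:5591860-5775467, plus strand), had 1081, 1008 and 1161 and 187 ± 13.2 per kilobase. Snai2, which encodes SLUG (chr16:14705852-14709385, plus strand), had 326, 299 and 295 and 152 ± 8.25 per kilobase. Zeb2, the other ZEB factor (chr2:44983632-45117395, minus strand), had 951, 1131 and 1209 and 120 ± 14.5 per kilobase.

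Per kilobase the order in control cells was Vim, S100a4, Krt8, Twist1, Krt18, Zeb1, Snai2, Zeb2, Cdh1 and Cdh2. Krt18 (177 to 203) and Zeb1 (174 to 200) overlapped in range across the control libraries, and the other neighbours did not. For Cdh1 (0.234 to 1.12) and Cdh2 (0 to 0.199) this was not resolved. The lowest Cdh1 value and the highest Cdh2 value were 1 read each. Over the length of all annotated exons Zeb1 was 106 and Zeb2 55.0 per kilobase, so that Zeb1 then fell below Snai2 and the rest of the order below S100a4 was kept.

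Gene models on the opposite strand overlap the exons of 3 of the genes, and the labels do not say whether counting used strand. Zeb2os shares 653 exonic bases with Zeb2 and had at most 11.2 normalised counts in a library. Gm36026 shares 101 bases with Krt8 and had at most 10.97, and Gm10125 shares 198 bases with Zeb1 and had at most 3.91.

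**Figure D1:**
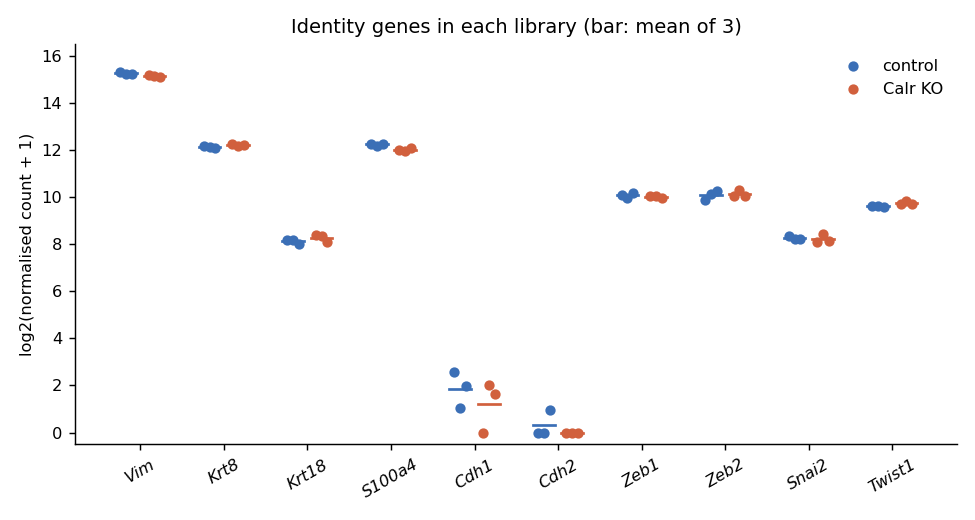
Each point is 1 library and each bar the mean of 3, with log2(normalised count + 1) on the vertical axis, for control (blue) and Calr KO (orange) cells. Vim stands highest, Cdh1 and Cdh2 lie near 0 in every library, and the groups lie close together for all 10 genes, with Vim and S100a4 lower and Twist1 higher in all 3 Calr KO libraries.

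The question of the comparison is whether cells with reduced Calr mRNA differ in epithelial or mesenchymal identity genes. Of the 10 genes, 8 reached a mean of 10 normalised counts over the 6 libraries and were tested, with 0 called higher and 0 called lower in Calr KO cells. Over all 13199 genes tested, limma called 0.28% (adjusted p under 0.05, Benjamini-Hochberg), 0.197% higher and 0.0833% lower, a share at which 0 of 8 is unremarkable. At an unadjusted p under 0.05 there were 3 of the 8, namely Vim, Krt8 and S100a4, against 8.88% of all tested genes. With voom weights 0 were called at an adjusted p under 0.05, as without them. The median log2 change of the 8 was -0.0047, against 0.00036 over all tested genes, and 4 lay above 0 and 4 below. Changes here are on the log2(normalised count + 1) scale, Calr KO minus control.

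Among the filament genes and S100a4, the largest difference was that of S100a4. Calr KO libraries held 4042, 3984 and 4344 normalised counts against 4911, 4645 and 4905 in the controls, so every Calr KO library lay below every control. The log2 change was -0.23 (SE 0.04, 95% interval -0.32 to -0.13, limma adjusted p = 0.116), a ratio of 0.855, which did not pass. The lowest adjusted p over the alternatives was 0.0687, without Calr KO replicate 3, and the highest 0.510.

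Vim had 37378, 36552 and 35208 normalised counts in Calr KO cells, also below all 3 controls. Its log2 change was -0.11 (SE 0.03, 95% interval -0.18 to -0.05, limma adjusted p = 0.278), a ratio of 0.925. The 95% interval of that ratio ran from 0.883 to 0.968.

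The keratin values lay on the other side of 0. Krt8 had 4907, 4634 and 4770 normalised counts in Calr KO cells, and replicate 2 of these lay just under control replicate 1. Its log2 change was 0.09 (SE 0.04, 95% interval 0.01 to 0.18, limma adjusted p = 0.525). Krt18 had 334, 324 and 270 in Calr KO cells, overlapping the controls, with a log2 change of 0.15 (95% interval -0.11 to 0.40, limma adjusted p = 0.766).

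The balance of the 2 keratins was compared within each library as the log2 of Krt8 minus that of Krt18. It was 3.88, 3.83 and 4.14 in Calr KO and 3.99, 3.91 and 4.10 in control cells, with overlapping groups. The means were 3.95 (SD 0.17) and 4.00 (SD 0.10), a difference of -0.05 (two-sided exact permutation test p = 0.7, where 3 libraries against 3 cannot go below 0.1). The excess of Krt8 over Krt18 was therefore seen in each of the 6 libraries.

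The cadherins were too low for the filter. Cdh1 had 0, 3 and 2 reads in the Calr KO libraries, 5 in all (95% exact Poisson interval 1.62 to 11.7), against 9 in the controls (4.12 to 17.1). Cdh2 had 0 reads in the Calr KO libraries (0 to 3.69) against 1 in the controls (0.0253 to 5.57). With no filter on low values limma gave a log2 change of -0.64 for Cdh1 (SE 0.65, adjusted p = 0.819) and of -0.32 for Cdh2 (SE 0.44, adjusted p = 0.819). The intervals of Cdh1 overlap, and no Calr KO library held more than 3 reads of either gene. A difference was not detected, and a small one could not be resolved at this depth. Over the Calr KO libraries the upper limits were 11.7 reads for Cdh1 and 3.69 for Cdh2, for counting error only.

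Among the transcription factors, Twist1 was higher in every Calr KO library than in every control, with 829, 907 and 826 normalised counts against 794, 796 and 755. Its log2 change was 0.13 (SE 0.06, 95% interval -0.02 to 0.27, limma adjusted p = 0.619). Groups of this kind, with all Calr KO libraries on 1 side of all controls, were found for 14.8% of all tested genes (7.57% higher and 7.28% lower). Among the 8 identity genes they were 3, S100a4 and Vim lower and Twist1 higher.

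The other repressors overlapped between the groups. Zeb1 had 1048, 1066 and 997 normalised counts in Calr KO cells (log2 change -0.06, 95% interval -0.21 to 0.09, limma adjusted p = 0.841). Zeb2 had 1056, 1269 and 1060 (0.04, 95% interval -0.19 to 0.27, adjusted p = 0.940), and its sign turned without Calr KO replicate 2 (-0.04) or control replicate 1 (-0.06). Snai2 had 268, 341 and 283 (-0.05, 95% interval -0.30 to 0.19, adjusted p = 0.930), and its sign turned without Calr KO replicate 1 (0.02). For these 3 genes the intervals leave room for ratios of 0.813 to 1.21, so differences of that size were not resolved.

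**Figure D2:**
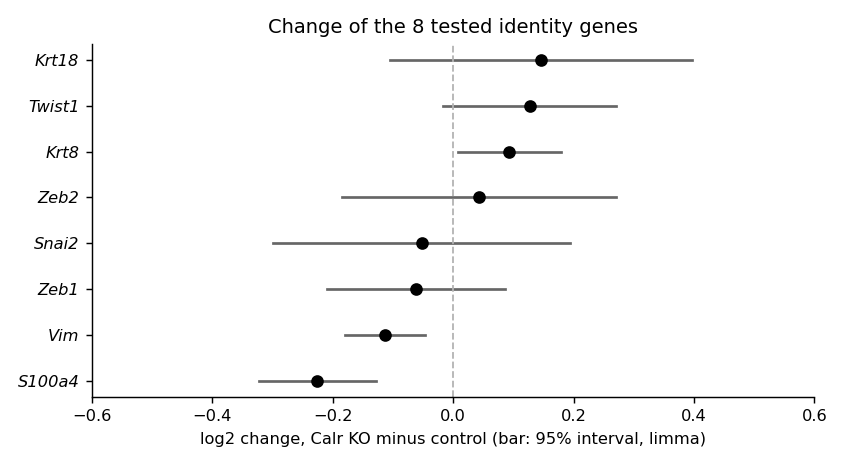
Points give the log2 change (Calr KO minus control) of the 8 identity genes that were tested and bars the 95% interval from limma. The intervals of S100a4 and Vim lie below 0 and that of Krt8 above it, before adjustment over all genes; none passed after it.

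Lists of related genes place the 10 in the wider state of the line. The epithelial side was thin. Of 15 regulators of epithelial fate, 7 had a control mean under 10 normalised counts and 0 reached 1000, and Grhl3, Ovol2, Esrp1, Ehf and Nkx2-1 were listed at 0 in all libraries. Esrp1 directs epithelial splicing, Grhl3 and Ovol2 are epithelial transcription factors, and Nkx2-1 is the lineage factor of lung epithelium. The other 8 regulators had control means between 10 and 1000. They include relatives of genes at 0, named here after their values were seen. Grhl2 had 48.8 ± 18.5, Ovol1 36.6 ± 7.31 and Esrp2 10.6 ± 5.01 normalised counts in control cells. The highest were Klf5, a factor of proliferating epithelia, at 248 ± 7.75 normalised counts in control cells (SD, n = 3), and the epithelial ETS factor Elf3 at 98.4 ± 3.90.

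Keratins other than the pair were almost all missing. Of 16 further keratin genes 12 were listed at 0 in all libraries, and 1, Krt80, had a control mean of at least 10 (73.2 ± 6.52). Krt7, a simple-epithelial keratin and the next by its mean over all 6 libraries (0.984), had 0.668 normalised counts in control cells. Genes that every cell uses, such as Actb and Tbp, were above 0 in all libraries.

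Among 33 genes of epithelial junctions and polarity, 20 had a control mean under 10, and 9 were listed at 0 in all libraries. Epcam, the epithelial adhesion molecule, is one of those 9, and is named here after its value was seen. Another 12 had control means between 10 and 1000. They include Pkp2 at 650 ± 69.6, Pkp3 at 155 ± 60.5, F11r at 151 ± 13.1 and Ocln at 86.7 ± 9.86, also named after their values were seen. Tjp1, which encodes the junction scaffold ZO-1, was the only member above 1000, at 3317 ± 217.

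The near absence of Cdh1 and Cdh2 extended to the cadherin family. Of 13 other classical and related cadherins 11 had a control mean under 10, and Cdh6, Cdh8, Cdh10 and Cdh16 were listed at 0. The highest were Cdh15, known as muscle cadherin, at 21.5 ± 4.40 and Cdh24 at 12.0 ± 4.13 normalised counts in control cells. The cytoplasmic partners of cadherins were abundant, since 5 of 9 exceeded 1000. Ctnnb1, which encodes beta-catenin, also a transducer of Wnt signals, had 8323 ± 275, and Afdn, the actin-binding afadin of nectin junctions, 5493 ± 157. Ctnna2 and Ctnnd2, the neural catenins, were listed at 0.

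Mesenchymal effector genes were mostly abundant, with 14 of 25 above 1000 normalised counts in control cells. Itgb1, the shared beta subunit of matrix-binding integrins, had 8167 ± 131 and the actin-binding tropomyosin gene Tpm1 7574 ± 93.5. The list was not uniform. Its 7 members under 10 were Acta2, Tagln, Myl9, Thy1, Fap, Postn and Lox, named here after their values were seen, of which Acta2, Tagln and Myl9 are contractile genes of smooth muscle and myofibroblasts. The fibroblast markers were as mixed, with Col3a1 at 20527 ± 259 and Col1a1 at 6.56 ± 3.78.

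Of 12 other EMT transcription factors, 8 had a control mean of at least 10. Prrx1, a homeobox factor of limb and craniofacial mesenchyme, had 4363 ± 106 normalised counts and the E-protein gene Tcf4 1482 ± 169. Sox4 was listed at 0 in all libraries. Among lung epithelium markers 9 of 11 had a control mean under 10, with Sftpc, Sftpa1, Sftpd, Nkx2-1 and Scgb1a1 listed at 0, and Hopx at 376 ± 12.8 made up most of the list's sum of 398 to 439 normalised counts in control and 389 to 411 in Calr KO cells. The labels call the line a lung cancer cell, and the defining markers of alveolar type II cells (Sftpc) and club cells (Scgb1a1) were among those at 0.

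Relatives of the filament and S100 genes ranged from 0 to very high levels. Of 13 other intermediate filament and linker genes, 5 had a control mean under 10 and 5 exceeded 1000, and of 15 other S100 and annexin genes 7 were under 10 and 4 above 1000. Plec, which encodes the linker plectin, had 14853 ± 516 normalised counts in control cells and Lmna, the nuclear lamin A/C gene, 10006 ± 223. S100a6 had 18200 ± 365 and Anxa2, the annexin partner of S100A10, 9534 ± 490; S100a9 and S100g were listed at 0. Per kilobase, S100a6 (24898) stood above S100a4 (9680) and Vim (17940) in control cells.

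In the TGF-beta pathway, a principal inducer of EMT, 19 of 22 genes had a control mean of at least 10. The highest were Ltbp1, which anchors latent TGF-beta in matrix, at 2555 ± 60.4 and the co-receptor gene Tgfbr3 at 2440 ± 167. The pseudoreceptor gene Bambi was listed at 0.

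**Figure D3:**
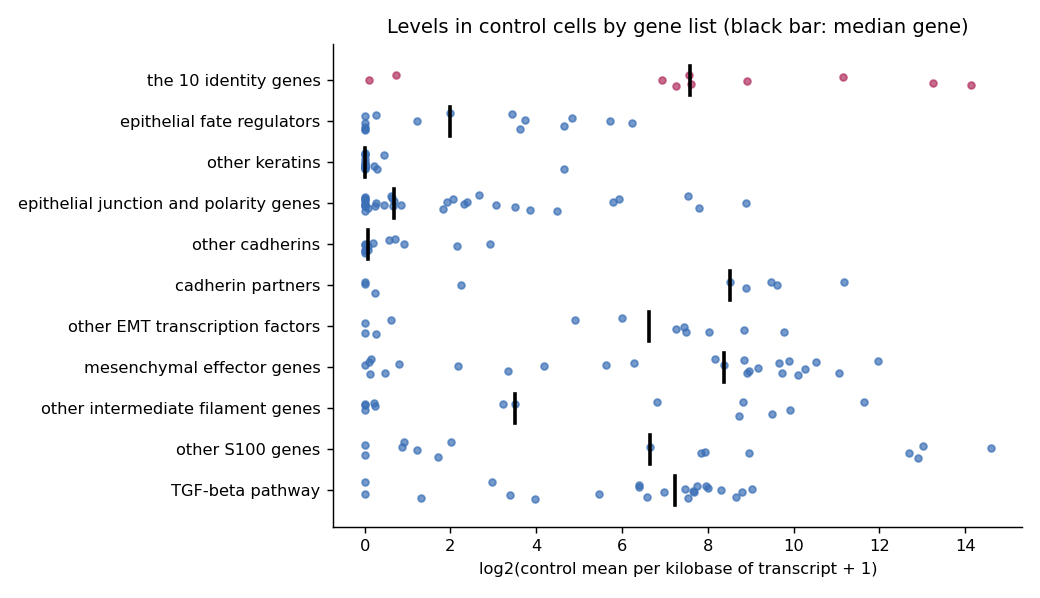
Each point is 1 gene, placed by log2(control mean per kilobase of transcript + 1), with the median gene of each list as a black bar. Most other keratins, other cadherins and epithelial junction genes lie near 0, while 14 of 25 mesenchymal effector genes had control means above 1000 normalised counts.

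Across these 10 lists, 0 genes were called in Calr KO cells in either direction, by limma or with voom weights. The tested genes and the median log2 change were 8 and -0.06 for the other EMT factors, 8 and 0.04 for epithelial fate regulators, and 12 and -0.04 for junction and polarity genes. They were 3 and -0.31 for other cadherins, all low, and 6 and 0.0033 for cadherin partners. Among the tested cadherins, Cdh5 reached the filter only through Calr KO replicate 3, so its entry to the test is no sign of a difference. For mesenchymal effectors they were 18 and -0.02, for other filament genes 8 and -0.07, for other S100 genes 8 and -0.02 and for the TGF-beta pathway 19 and -0.06. Of the other keratins 1 was tested, Krt80, with 0.07.

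At an unadjusted p under 0.05 there were 7 of the 18 mesenchymal effectors, 4 of the 19 TGF-beta genes, 3 of the 8 other filament genes, 2 of the 6 cadherin partners and 1 each of the other EMT factors, junction genes and S100 genes, against 8.88% of all tested genes. The epithelial fate regulators, other keratins and other cadherins had 0. The smallest adjusted p in any list was 0.102, for Ltbp3, a binding protein of latent TGF-beta, named after its values were seen. Ltbp3 had 1894, 1982 and 1844 normalised counts in Calr KO and 2188, 2401 and 2326 in control cells, with no overlap (log2 change -0.27, SE 0.05).

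Among genes that the level of expression singled out, Itgb1 changed by -0.08 (limma adjusted p = 0.463), Tpm1 by -0.06 (0.615), Ctnnb1 by -0.0076 (0.973) and Afdn by -0.17 (0.309). Plec changed by 0.09 (0.424), Lmna by 0.03 (0.809), S100a6 by -0.08 (0.326) and Anxa2 by -0.01 (0.948), none past the threshold. Prrx1 changed by -0.0024 (0.992), Tcf4 by -0.08 (0.834), Klf5 by 0.0042 (0.994) and Elf3 by -0.15 (0.808). Tjp1 changed by 0.04 (0.860), Ltbp1 by -0.13 (0.381), Tgfbr3 by 0.13 (0.547), Cdh15 by -0.60 (0.756) and Cdh24 by -0.31 (0.880). The wide values belong to the low cadherins, whose SEs are large.

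**Figure D4:**
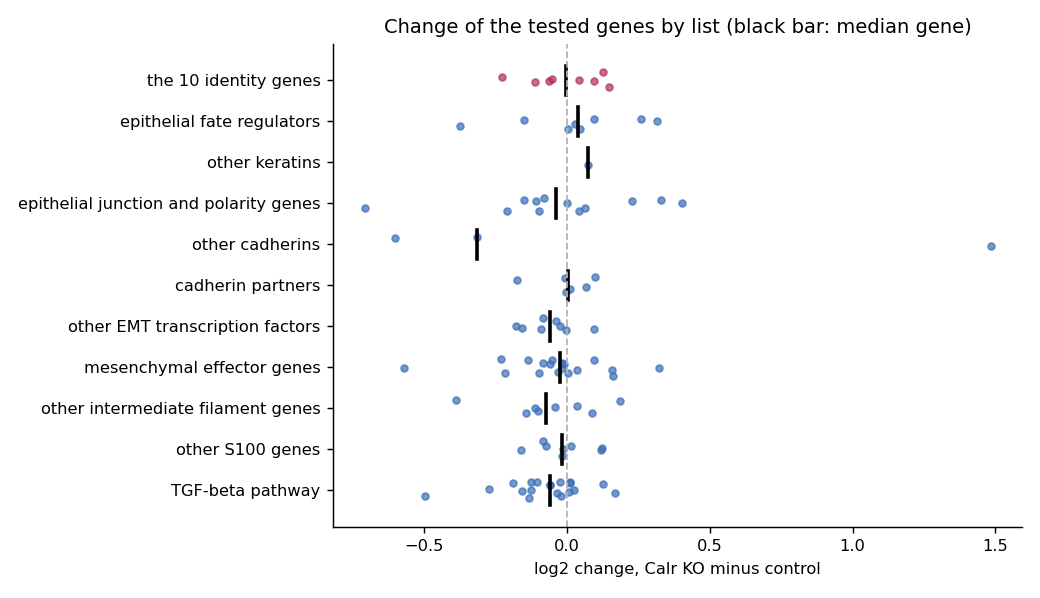
Each point is 1 tested gene, placed by its log2 change (Calr KO minus control), with the median gene of each list as a black bar. The medians lie between -0.31 (other cadherins, 3 low genes) and 0.07 (other keratins, 1 gene), and no gene shown passed the test.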

How the data were processed

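The authors deposited 1 table of gene counts normalised with DESeq2, a signal per gene for each of 6 libraries, per the labels. The build mm10 and the tools DESeq2 1.34.0, Salmon 0.14.1 and STAR 2.6.1d appear in the submitters' processing notes, where no step is assigned to them. Which gene annotation they used is not stated there. Of the 55291 symbols, 53292 matched GENCODE M21 (GRCm38), which gave coordinates and transcript lengths; principal transcripts are those tagged by APPRIS, otherwise the longest. Libraries were grouped by title.

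The most frequent value near 1 was taken as the worth of 1 read (0.945 to 1.04, or an estimated 13571131 to 14919040 reads per library). Cdh1 and Cdh2 values came within 0.00097 reads of whole numbers. Between 26.7% and 36% of the values of up to 1000 reads in a library were whole within 0.02, and count models were not used. The intervals on reads hold for counting error alone.

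Genes with a mean of at least 10 were tested, 13199 in all, after log2 transformation with a pseudocount of 1, in limma 3.58.1 under R 4.3.3 (empirical Bayes, variance prior following the mean, two-sided, Benjamini-Hochberg over all tested genes, threshold 0.05). The fit was run on simulated whole-number counts with planted changes larger than any seen in the tested identity genes. Its power for changes as small as theirs was not tested. Fold changes on this scale understate those of low genes. Alternatives were pseudocounts 0.5 and 5, other filters, scalings (equal sums, trimmed mean of M-values) and variance priors, voom weights, a replicate block and leaving out each library; the exon-length alternative was chosen after seeing the data.

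The 10 genes and the lists were chosen with earlier results of these data known. Genes named are the 10, then in each list those that passed, otherwise the 2 of highest mean, plus members at 0 where fewer than 6; others are marked as named after their values were seen. For 1 gene taken by this rule, no result is reported here.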

Additional observations from a re-analysis of the deposited data

How the results depend on the processing

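Of the 8 tested identity genes 0 were called in each of 16 alternative settings, as were 0 in each of the 10 other lists. The count over all genes was 37 (26 higher and 11 lower), 2 with a single variance prior, and between 20 and 34 when 1 library was left out. S100a4, Vim, Krt8, Krt18, Zeb1 and Twist1 kept their sign in all 16 settings; S100a4 ranged from -0.26 to -0.20 and Vim from -0.13 to -0.09. Leaving out 1 library moved Zeb1 (-0.061) to -0.010 without control replicate 3, to -0.112 without control replicate 2 and to -0.033 when Calr KO replicate 3 was left out. It moved Krt18 (0.145) to 0.080 without control replicate 3, and to 0.088 or 0.241 when replicate 1 or 3 of Calr KO was left out. Twist1 (0.127) came to 0.082 when Calr KO replicate 2 was left out. Zeb2 turned to -0.045 without Calr KO replicate 2 and to -0.057 without control replicate 1, and reached 0.116 without control replicate 3. Snai2 turned to 0.019 without Calr KO replicate 1 and reached -0.154 without Calr KO replicate 2. The difference between the keratins turned to 0.0057 without Calr KO replicate 2, within a range of -0.15 to 0.0057 over the libraries left out. The cause was not tested. Replicate numbers are shared between the groups but the labels name nothing that pairs wells. Deviations of same-numbered libraries correlated at -0.056, -0.011 and 0.0014, and no library correlated best with its own number. With the replicate block 26 genes were called, and 0 identity genes. The median change of all tested genes was 0.00036, and -0.0019 with libraries rescaled to the same sum. Depth limits the cadherins, with 9 and 1 control reads for Cdh1 and Cdh2.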

Other observations

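Other adhesion genes, named after their values were seen, stood far above the cadherins. Of 23 genes whose symbol is Cdh with a number, 3 averaged 10 normalised counts or more and 9 were listed at 0 in all. Cdh5 was among those 3 only through Calr KO replicate 3. The protocadherin gene Pcdhgc3, of the clustered gamma family, had 1606, 1614 and 1615 normalised counts in Calr KO and 1394, 1530 and 1543 in control cells (log2 change 0.12, SE 0.05). Isoforms of this cluster share their last exons, so its reads can be split between them. Pcdh7, a non-clustered protocadherin, had 594, 643 and 557 against 485, 626 and 560, with overlapping groups.

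Cdh5 encodes the cadherin of endothelium. It had 6.80, 5.91 and 37.4 normalised counts in the Calr KO libraries and 3.59, 2.98 and 4.17 in the controls. Most of its Calr KO mean came from replicate 3, and its mean over all libraries (10.1) reached the filter only through that library. Cdh23, a cadherin of hair cells, had 1.19, 1.77 and 2.18 against 23.7, 18.5 and 5.35, with no overlap. Its mean over all libraries (8.79) was under the filter, so the main fit did not test it. Its estimates in the settings with a lower filter or none are not given here. Dcn, which encodes the matrix proteoglycan decorin of fibroblasts, had 33.2, 27.9 and 34.5 against 12.0, 16.7 and 17.7 (log2 change 1.01, SE 0.28, limma adjusted p = 0.312). Axl, a receptor kinase linked to mesenchymal carcinoma cells, had 3663, 3687 and 3698 against 4155, 4036 and 3951 (log2 change -0.14, SE 0.03, limma adjusted p = 0.270).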
